A study of Mus musculus with 6 samples.

Results

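The genes of DNA methylation and its removal were examined in thymic stage 0 iNKT cells from SKG mice and their BALB/c controls. They comprise the DNA methyltransferases Dnmt1, Dnmt3a and Dnmt3b, the maintenance cofactor Uhrf1, the dioxygenases Tet1, Tet2 and Tet3, the thymine DNA glycosylase Tdg and the reader Mbd2. These 9 genes were taken by symbol from the 48397 genes of the count table, and all 9 were found and passed the filter on low counts, as did 12312 genes in all. Stage 0 iNKT cells are the earliest thymic precursors of the invariant natural killer T lineage after positive selection on CD1d. They were sorted as PBS57-CD1d tetramer+, CD24+ and CD69+ cells that lacked CD44 and CD8 and had little or no CD4. SKG mice carry a hypomorphic mutation of Zap70, the kinase that transmits the T cell receptor signal, on the BALB/c background, and wild-type BALB/c mice served as controls. There were 3 libraries per genotype, each made from about 1000 sorted cells; thymi of 3 mice, 8 to 10 weeks old, were pooled for each, and a replicate is thus an independent pool and not a single mouse. The comparison asked whether weaker Zap70 signalling alters the RNA of these genes at the first stage of the lineage.

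Methyl groups on cytosines of CpG pairs are placed de novo by Dnmt3a and Dnmt3b and are copied to the new strand after replication by Dnmt1, which Uhrf1 brings to hemimethylated DNA. Tet enzymes oxidise 5-methylcytosine, Tdg excises the further oxidised bases so that base excision repair can restore cytosine, and Mbd2 binds methylated CpG and recruits repressor complexes. In mice, Tet2 and Tet3 together restrain the expansion of iNKT cells.

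None of the 9 genes was called between the genotypes. With a call defined as an FDR below 0.1 together with a 1.5-fold difference or more, the edgeR quasi-likelihood F test called 0 of 12312 genes, a background of 0%, so the absence of calls among these genes does not set them apart. These thresholds are those of the paper, which applied them with DESeq2 and reported differentially expressed genes. At the same thresholds, DESeq2 with shrunken fold changes called 231 of 13862 genes here, or 1.67%, and 0 of the 9. At an unadjusted p under 0.05 there were 0 of the 9 genes, against 671 genes or 5.45% of all tested. With the other tools 1 of the 9, Tet2, had such a p, where 10% of all genes had one with DESeq2 without shrinkage, 8.25% with shrunken fold changes and 7.86% with limma-voom. By the fitted fold, 5 leaned towards SKG and 4 towards BALB/c, with a median log2 fold change of 0.31 beside -0.02 over all genes. Tet2 had the largest fitted difference, at a mean of 15 ± 7.65 CPM (SD over n = 3 libraries) in BALB/c against 2.77 ± 3.15 (SD, n = 3) in SKG. CPM (reads per 1000000 library reads) were computed with library sizes adjusted by TMM, a scaling that assumes that most genes are equal between libraries. In bulk RNA, fewer cells of a type and less RNA per cell cannot be told apart.

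The spread between libraries was wide although their depths were alike. Reads counted per library lay between 37176544 and 43115544, but the genes that reached 10 reads numbered 10835 in the poorest and 14791 in the richest library, and the common dispersion was 0.842, a coefficient of variation of 91.8% between libraries of a genotype. The within-genotype SD of log2 CPM had a median of 0.83 over the 9 genes and 0.64 over all genes tested. For 9 of 9 genes, the ratio of the highest to the lowest library exceeded the fitted fold between the genotypes in at least 1 genotype. For Tet2 this held in SKG, at 10.33 against a fold of 5.417, but not in BALB/c, at 3.164. The share of all tested genes with such a ratio in at least 1 genotype was not computed. The count of 9 of 9 therefore cannot be read as a trait of these genes. With 3 libraries against 3, the smallest p of an exact permutation test of 1 gene is 0.1.

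**Figure D1:**
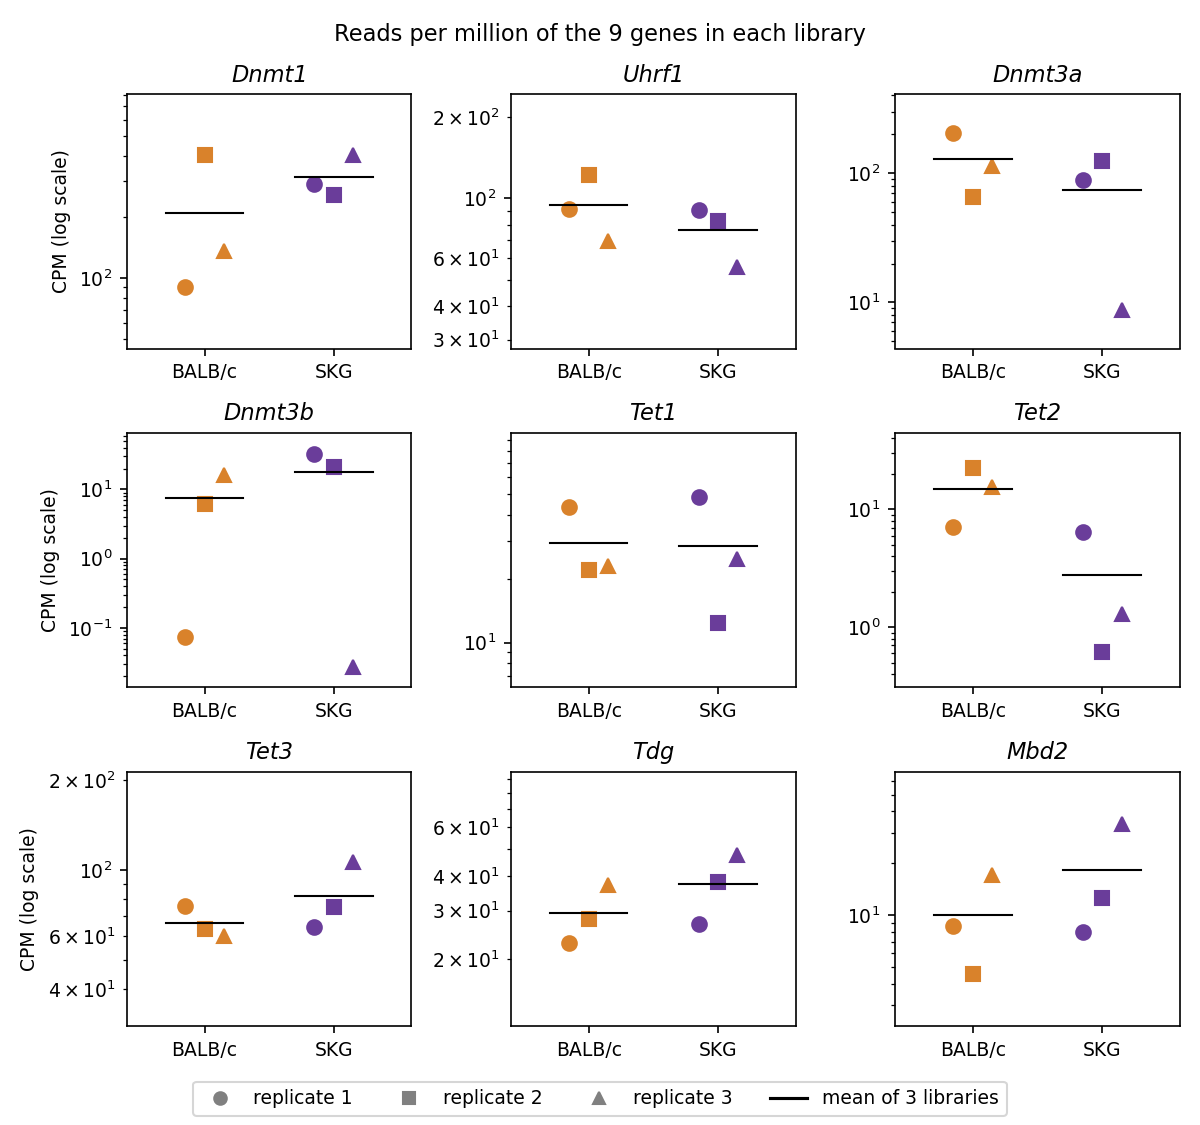
CPM (log axis, with its own range in each panel) of the 9 genes in the 3 BALB/c and 3 SKG libraries; each symbol is 1 library, its shape the replicate number, and the black line the mean of 3. Only for Tet2 do all BALB/c libraries lie above all SKG libraries, with 7.06 CPM in the lowest BALB/c and 6.38 in the highest SKG library.

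Maintenance of methylation was represented by Dnmt1 and Uhrf1, the pair of genes with the highest levels per exon length of the 9. Dnmt1, on chromosome 9 of GRCm38 from 20907209 to 20959888 on the minus strand, had 3713, 14948 and 6147 reads in BALB/c (replicates 1 to 3, in this order throughout) against 11644, 9947 and 14565 in SKG. Its SKG libraries lay close together, between 256 and 403 CPM, whereas BALB/c replicates 1 and 3 were lower, at 90.0 and 136 CPM, and BALB/c replicate 2 was as high as the highest SKG library. The means were 209.7 ± 169 CPM (SD, n = 3) in BALB/c against 316 ± 77.0 (SD, n = 3) in SKG. The log2 fold change of SKG over BALB/c was 0.59 (standard error 0.55, 95% interval -0.73 to 1.91, edgeR adjusted p = 0.991), and it was 1.47 without BALB/c replicate 2 and 0.23 without BALB/c replicate 1.

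Uhrf1, on chromosome 17 from 56303321 to 56323486 on the plus strand, had 3766, 4519 and 3153 reads in BALB/c against 3640, 3209 and 2012 in SKG. The groups overlapped, at 94.3 ± 26.1 CPM (SD, n = 3) and 76.2 ± 18.2 (SD, n = 3). The log2 fold change was -0.31 (standard error 0.31, 95% interval -1.04 to 0.43, edgeR adjusted p = 0.991), so the interval reached from lower to slightly higher levels in SKG. It was -0.09 without BALB/c replicate 2, -0.11 without SKG replicate 3 and -0.48 without BALB/c replicate 3. Over the 6 libraries, Uhrf1 did not follow Dnmt1, with a Pearson correlation of log2 CPM of 0.01, given as a description of libraries that share depth and preparation.

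The promoters of Dnmt1 and Uhrf1 were the only ones of the matched windows with a match to the E2F letters TTTGGCGC or TTTCGCGC on either strand. The windows are those of RefSeq on GRCm38.p6, from 250 bases before to 50 bases after a transcription start, and 13 windows of 8 genes matched by symbol. These motifs were chosen after the values had been seen. Of the 13 windows, 2 held a match, against 0.813% of all 32851 windows. E2F factors drive genes of DNA replication. The matches are printed 5′ to 3′ on the gene's strand, with the matched letters or their reverse complement in capitals and 10 bases before them, to show what the shared element looks like.
Dnmt1, chr9:20952825-20952852, minus strand, before the start: gtttccgcgcGCGCGAAAaagccggggt
Dnmt1, chr9:20952574-20952600, minus strand, after the start: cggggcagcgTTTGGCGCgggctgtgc
Uhrf1, chr17:56304118-56304145, plus strand, before the start: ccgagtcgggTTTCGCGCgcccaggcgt
A match of letters is a description and does not show that a factor was bound in these cells.

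The de novo enzymes varied most. Dnmt3a, on chromosome 12 from 3806007 to 3914443 on the plus strand, had 8465, 2428 and 5181 reads in BALB/c against 3586, 4805 and 318 in SKG. A single library, SKG replicate 3, stood far below the rest at 8.79 CPM, while the other 5 lay between 65.5 and 205 CPM. The means were 128.5 ± 70.9 CPM (SD, n = 3) in BALB/c against 73.8 ± 58.9 (SD, n = 3) in SKG, with a log2 fold change of -0.80 (standard error 0.88, 95% interval -2.90 to 1.30, edgeR adjusted p = 0.991). The log2 fold change was -0.26 without SKG replicate 3, -0.28 without BALB/c replicate 1 and -1.38 without SKG replicate 2.

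Dnmt3b, on chromosome 2 from 153649450 to 153687730 on the plus strand, was read in 4 libraries, with 227 to 1325 reads, and hardly at all in the other 2. It had 3, 227 and 736 reads in BALB/c against 1325, 807 and 1 in SKG. In CPM these were 0.0727, 6.12 and 16.3, and 32.9, 20.8 and 0.0277. The near absence of Dnmt3b thus occurred once in each genotype, in BALB/c replicate 1 and SKG replicate 3. Exact Poisson 95% intervals, which cover counting error only, were 0.619 to 8.77 reads around the 3 reads and 0.0253 to 5.57 around the single read. The ratio of the highest to the lowest library was 224 in BALB/c against 1189 in SKG, and the within-genotype SD of 4.33 on the log2 scale was at the 99.5th percentile of all genes tested. The fitted log2 fold change of 1.25 (standard error 2.1, 95% interval -3.79 to 6.30, edgeR unadjusted p = 0.571, adjusted p = 0.991) is the ratio of group means that each hold a library with 1 or 3 reads. It was 0.47 without SKG replicate 1 and 2.55 without BALB/c replicate 3, and differences of many-fold in either direction lie within its interval.

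Tet2 had the lowest level per exon length of the 9 genes and was the only one whose libraries did not overlap between the genotypes. It lies on chromosome 3 from 133463679 to 133545139 on the minus strand. Its reads were 291, 828 and 705 in BALB/c against 257, 24 and 47 in SKG, or 7.06, 22.3 and 15.6 CPM and 6.38, 0.617 and 1.30 CPM. The SKG replicates 2 and 3 were far below every BALB/c library, but SKG replicate 1 and BALB/c replicate 1 were almost equal, with a ratio of 1.11. Their exact Poisson 95% intervals, 5.62 to 7.21 and 6.27 to 7.91 CPM, overlapped, and those of SKG replicates 2 and 3 were 0.396 to 0.919 and 0.955 to 1.73 CPM.

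The fitted Tet2 level was 5.42-fold higher in BALB/c, a log2 fold change of -2.44 (standard error 1.15, 95% interval -5.20 to 0.33). It did not pass the test (edgeR, unadjusted p = 0.0752, adjusted p = 0.952). Leaving out SKG replicate 1 gave -3.97 and leaving out SKG replicate 2 gave -1.95, so the size rested on which SKG libraries were present while the sign stayed negative in all 6 such fits. DESeq2's Wald test gave an unadjusted p of 0.0147 and an adjusted p of 0.274 without shrinkage, and an unadjusted p of 0.0154 and an adjusted p of 0.375 with a shrunken log2 fold change of -1.65. With limma-voom the log2 fold change was -2.92, with an unadjusted p of 0.0474 and an adjusted p of 0.63. Genes whose libraries did not overlap were common, at 13.9% of all tested in either direction and 7.12% higher in BALB/c, against 1 of these 9 or 11.1%. Read against this background, 1 gene without overlap is not a result about these genes.

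The Tet2 promoter was the most CpG-rich of the matched windows, with 57 CpG in 300 bases, which lay at the 99.8th percentile of all windows, whose median was 7. The Tet3 window had 22, at the 76.9th percentile. The 250 bases before each start are shown 5′ to 3′ on the minus strand of GRCm38.p6, with each CpG in capitals. They set the matched window of the Tet gene with the lowest level beside that of its most even paralog.
Tet2, chr3:133544391-133544640: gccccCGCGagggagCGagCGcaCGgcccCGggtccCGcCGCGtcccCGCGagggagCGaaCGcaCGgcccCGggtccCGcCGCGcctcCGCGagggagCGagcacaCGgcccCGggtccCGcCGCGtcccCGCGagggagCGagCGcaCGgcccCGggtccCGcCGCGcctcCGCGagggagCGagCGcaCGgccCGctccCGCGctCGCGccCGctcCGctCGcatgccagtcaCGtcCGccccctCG
Tet3, chr6:83441679-83441928: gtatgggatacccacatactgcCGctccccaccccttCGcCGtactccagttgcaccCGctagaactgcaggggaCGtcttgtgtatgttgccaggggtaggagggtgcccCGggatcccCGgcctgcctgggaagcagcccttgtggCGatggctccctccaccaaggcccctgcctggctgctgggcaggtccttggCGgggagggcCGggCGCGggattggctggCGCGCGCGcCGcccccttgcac
The Tet2 run holds 51 CpG and the Tet3 run 17. The Tet2 window reaches 133544640, near the 5′ end of the annotated gene at 133545139. The Tet3 window reaches 83441928, well inside a gene whose 5′ end is at 83459084. The Tet1 window, to 62887574, is likewise inside a gene whose 5′ end is at 62908996. The CpG counts of Tet2 and Tet3 thus compare unlike starts, and which starts were used in these cells was not tested. The windows of the other genes held 46, 47 and 18 CpG for Dnmt3a, 30 for Dnmt3b, 26 for Tdg, 17 for Tet1, 12 and 33 for Uhrf1, and 2, 12 and 33 for Dnmt1. The letters GGGCGG, bound by Sp1, were found on either strand in 10 of 13 windows, against 35.7% of all windows, and the NRF1 motif in 2 of 13, both of Dnmt1, against 0.971%. The 13 windows had a median of 26 CpG against 7 over all windows, and no windows of like CpG content were set beside them. Some genes gave more than 1 window, and the first 2 of Dnmt3a overlap, so the windows are not independent. DNA methylation itself was not measured in these libraries.

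Tet3, on chromosome 6 from 83362373 to 83459084 on the minus strand, was the most even of the 9 genes. It had 3111, 2360 and 2711 reads in BALB/c against 2594, 2925 and 3853 in SKG, and the groups overlapped. The means were 66.4 ± 8.06 CPM (SD, n = 3) and 82.1 ± 21.9 (SD, n = 3), and the within-genotype SD of 0.29 on the log2 scale was at the 16.9th percentile of all genes. The log2 fold change was 0.31 (standard error 0.28, 95% interval -0.36 to 0.97, edgeR adjusted p = 0.991), the narrowest interval of the 9, and was 0.09 without SKG replicate 3.

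Tet1, on chromosome 10 from 62804570 to 62908996 on the minus strand, had 1793, 814 and 1039 reads in BALB/c against 1961, 479 and 899 in SKG. One library of each genotype, replicate 1 in both, was well above the others. The means of 29.5 ± 12.1 CPM (SD, n = 3) and 28.6 ± 18.5 (SD, n = 3) were nearly equal, with a log2 fold change of -0.04 (standard error 0.63, 95% interval -1.55 to 1.47, edgeR adjusted p = 0.999). The interval still allows a difference of over 2-fold in either direction, and the sign turned when BALB/c replicate 1, SKG replicate 2 or SKG replicate 3 was left out.

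**Figure D2:**
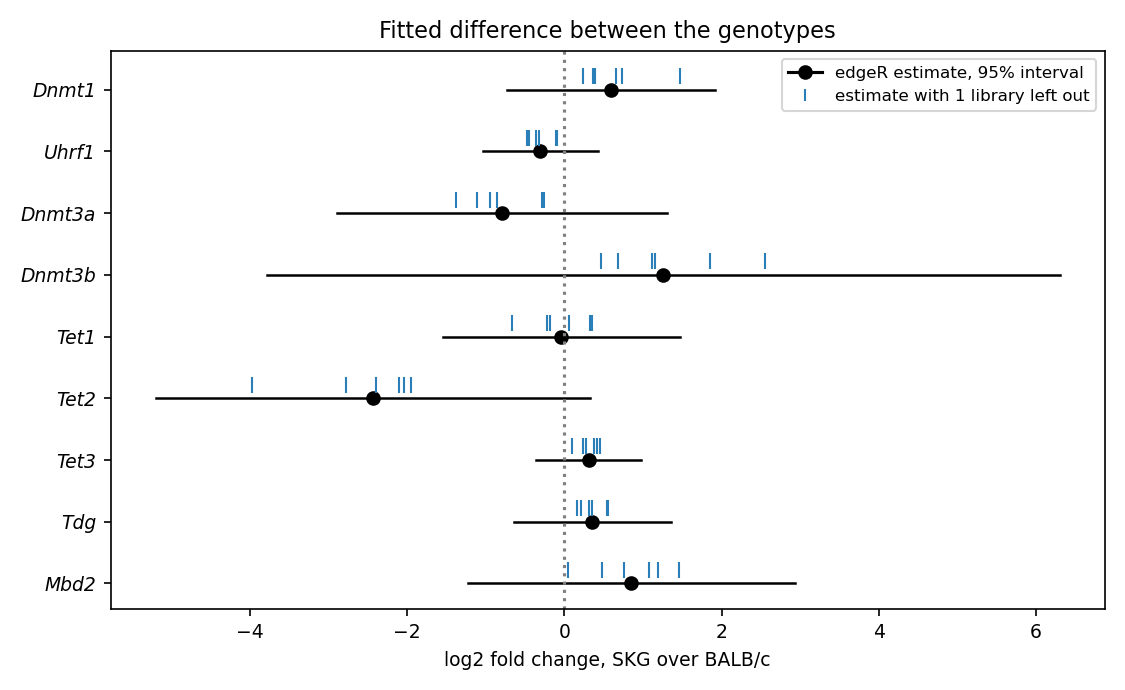
Fitted log2 fold change of SKG over BALB/c for the 9 genes (points) with the 95% interval from edgeR (lines) and the estimates with each library left out in turn (blue ticks). Every interval includes 0; the widest is that of Dnmt3b, from -3.79 to 6.30, and the narrowest that of Tet3, from -0.36 to 0.97.

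Tdg, which removes thymine mispaired with guanine as well as the oxidised products of Tet enzymes, lies on chromosome 10 from 82629828 to 82650799 on the plus strand. It had 947, 1043 and 1675 reads in BALB/c against 1079, 1486 and 1726 in SKG, so the groups overlapped at 29.4 ± 7.15 CPM (SD, n = 3) and 37.6 ± 10.5 (SD, n = 3). The log2 fold change was 0.35 (standard error 0.42, 95% interval -0.64 to 1.35, edgeR adjusted p = 0.991), and was 0.16 without SKG replicate 3 and 0.56 without BALB/c replicate 3. These values are uncertain because the pseudogene Tdg-ps was counted with 188 to 424 reads per library, between 19.9% and 30.6% of the reads on Tdg. Only reads with mapping quality 10 or higher were counted, so reads that match both copies equally well may have been lost. Others may have been assigned to the wrong copy. Some 6.83% of the exon length of Tdg is also shared with Glt8d2, which had at most 129 reads.

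Mbd2 had 356, 168 and 769 reads in BALB/c against 322, 490 and 1227 in SKG. Replicate 3 was the highest library in both genotypes, and the groups overlapped at 10.1 ± 6.37 CPM (SD, n = 3) and 18.2 ± 13.8 (SD, n = 3). The log2 fold change was 0.85 (standard error 0.87, 95% interval -1.23 to 2.93, edgeR adjusted p = 0.991) and was 0.05 without SKG replicate 3, 0.48 without BALB/c replicate 2 and 1.46 without BALB/c replicate 3.

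SKG replicate 3 was the highest or lowest of the 6 libraries for 6 of the 9 genes. It was highest for Tet3, Tdg and Mbd2 and lowest for Uhrf1, Dnmt3a and Dnmt3b. It also had the fewest genes with at least 10 reads, 10835, and was at an extreme for 47.9% of all genes tested, ties included. BALB/c replicate 1 was at an extreme for 49.7% of all genes and for 3 of the 9. The part of these libraries in the differences above was not tested beyond leaving each out.

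Compared per kb of exon, the 9 genes spanned a wide range. The mean over the 6 libraries was 35.6 CPM per kb for Dnmt1 and 20.0 for Uhrf1. A middle group followed, with 6.23 for Tdg, 6.08 for Dnmt3a, 4.44 for Tet3 and 4.39 for Mbd2, and the lowest levels were 2.49 for Dnmt3b, 1.88 for Tet1 and 0.526 for Tet2. Of the neighbours in this order, only Uhrf1 and Tdg had ranges that did not overlap, with Uhrf1 higher in 6 of 6 libraries. Tet1 was also above Tet2 in 6 of 6 libraries, and Dnmt1 above Uhrf1 in 5 of 6, with overlapping ranges. Tdg and Dnmt3a could not be ordered, with Tdg higher in 3 of 6 libraries, nor could Dnmt3b and Tet1, with Dnmt3b higher in 3 of 6. Per kb of coding length, Dnmt3a moved above Tdg, at 35.7 and 26.5 CPM per kb, and nearly reached Uhrf1, at 36.3, so the gap below Uhrf1 was seen with exon length only. The rest of the order was kept.

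**Figure D3:**
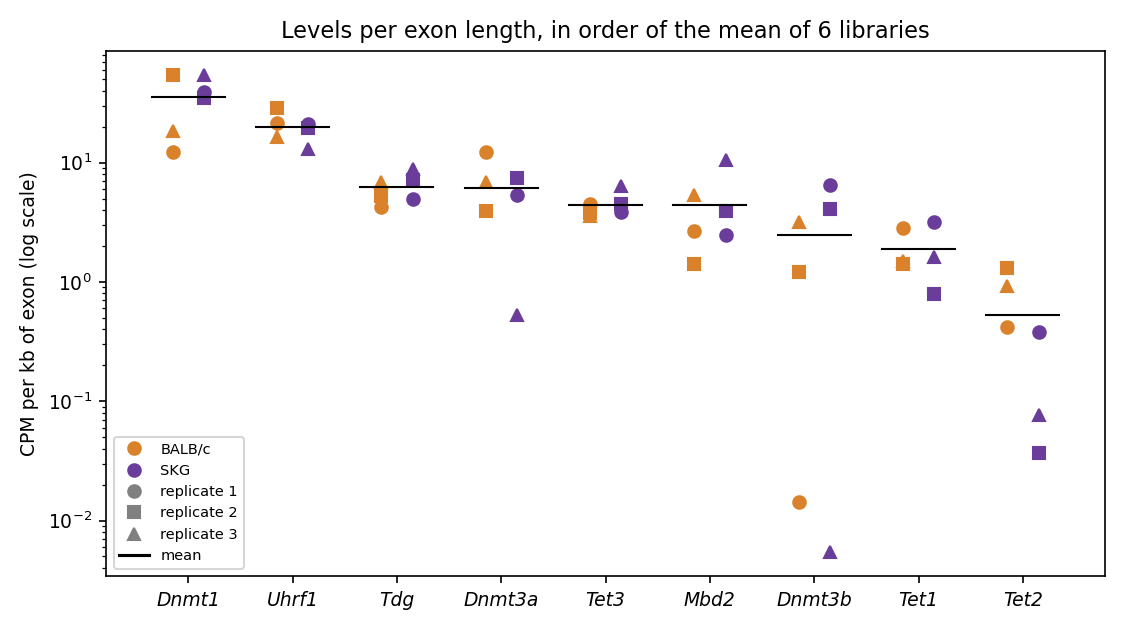
Levels per exon length (CPM per kb, log axis) in each of the 6 libraries, with genes ordered by their mean (black line). Dnmt1 and Uhrf1 stand at 35.6 and 20.0 CPM per kb and Tet2 at 0.526; Dnmt3b falls to 0.00542 in 1 library.

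Within the methyltransferase family, Dnmt1 made up most of the reads per kb in 5 of the 6 libraries. Its share was 49.7%, 91.4% and 64.7% in BALB/c against 76.9%, 75.1% and 99.0% in SKG, or 68.6% ± 21.1 (SD, n = 3) and 83.7% ± 13.3 (SD, n = 3). In BALB/c replicate 1, Dnmt3a was level with it at 50.2%, and with reads not divided by length it was ahead there, at 69.5% against 30.5%. Per kb of coding length Dnmt3a also led in BALB/c replicate 3, at 54.1% against 37.4%, and its BALB/c mean of 51.7% was above that of Dnmt1, at 44.8%, so which enzyme led in BALB/c depended on the length used. The Dnmt3a share ranged from 6.58% to 50.2% in BALB/c against from 0.958% to 16.1% in SKG, and the Dnmt3b share reached at most 11.2% and 12.6%. The summed level of the family was 37.6 ± 19.3 CPM per kb (SD, n = 3) in BALB/c against 50.8 ± 4.48 (SD, n = 3) in SKG. These shares are ratios within a library, and the groups overlapped for all 3 enzymes.

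Within the Tet family, Tet3 held the largest share in every library. In BALB/c it was very even, at 58.3%, 58.1% and 59.8%, whereas in SKG it was 52.2%, 84.4% and 79.1%. Tet2 contributed 5.40%, 20.2% and 15.4% of the family in BALB/c against 5.12%, 0.685% and 0.955% in SKG. SKG replicate 1 thus had a Tet make-up close to that of BALB/c replicate 1, and the other 2 SKG libraries had almost no Tet2. The summed Tet level was nearly equal, at 6.77 ± 0.89 CPM per kb (SD, n = 3) in BALB/c against 6.93 ± 1.42 (SD, n = 3) in SKG. The Tet2 shares did not overlap between the genotypes, as its CPM did not, and no test was run on these shares.

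**Figure D4:**
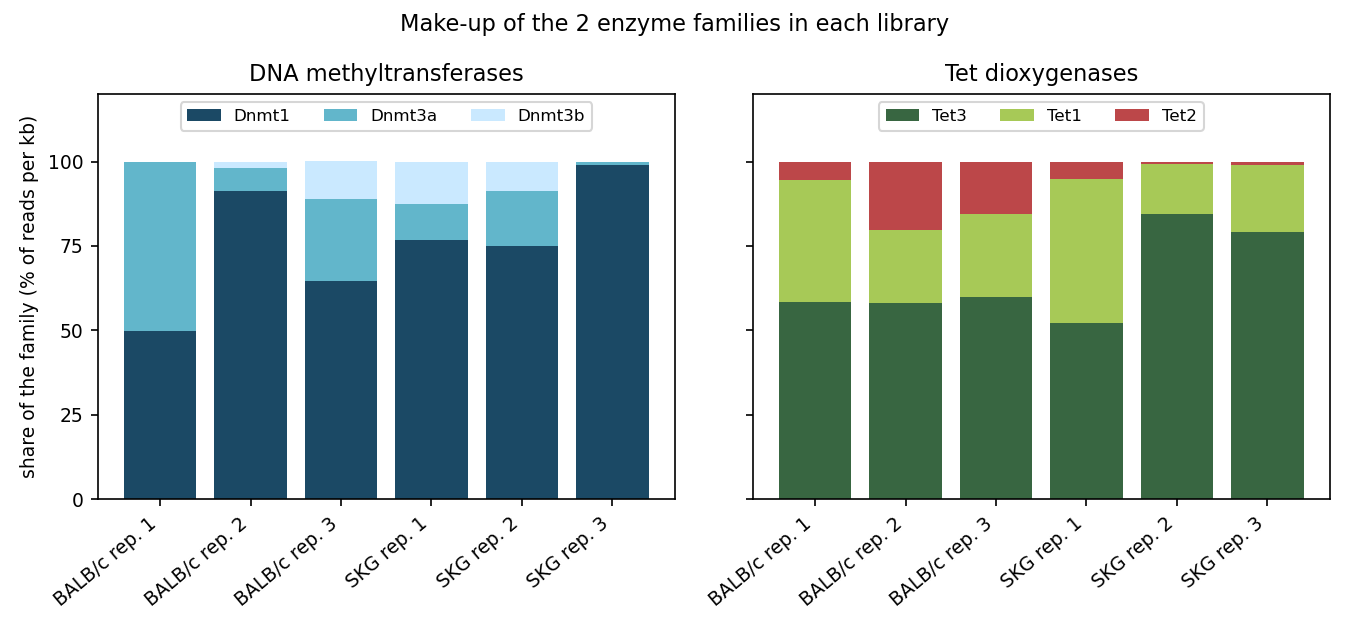
Share of each enzyme in the summed reads per kb of exon of its family (percent, stacked to 100) in each of the 6 libraries. Tet3 takes 52.2% to 84.4% of the Tet reads, and the Tet2 band is under 1% in SKG replicates 2 and 3; Dnmt1 takes 49.7% to 99.0% of the methyltransferase reads.

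The genes whose levels followed the members most closely over the 6 libraries were picked by the Pearson correlation of log2 CPM among the 12312 genes, as a description without a test. For Dnmt1 they were Tbc1d10c (r = 0.995), Zer1 (0.977) and Brd9 (0.976). For Tet2 they were Sec23ip (r = 0.989), Rae1 (0.989) and Cyfip1 (0.987), of which Cyfip1 had at most 7.52 CPM. For Tet3 they were Cnn2 (r = 0.991), Tex261 (0.990) and Tstd2 (0.990). With 6 points and 12312 genes such values are common, and 36, 30 and 22 genes had r of at least 0.95 with Dnmt1, Tet2 and Tet3. Among the 36 pairs of the 9 genes themselves, the strongest relation was between Uhrf1 and Mbd2, at -0.99, and Tdg and Mbd2 were at 0.83.

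A wider list of 40 genes covered relatives and partners of the methyltransferases, other readers of CpG, imprint protection, base excision repair with the Gadd45 genes, and the cofactors of methylation and oxidation. Of these, 35 were tested and 0 were called by edgeR. At an unadjusted p under 0.05 there were 3, or 8.57% against 5.45% of all genes, and all 3 were higher in SKG. The median log2 fold change was 0.07 beside -0.02 over all genes, with 20 leaning towards SKG and 15 towards BALB/c. The libraries did not overlap for 5 genes, or 14.3%, close to the 13.9% of all genes.

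Cxxc5, which encodes a CXXC zinc finger protein that binds unmethylated CpG, had the lowest p. It had 1125, 1848 and 2286 reads in BALB/c against 3122, 4730 and 4240 in SKG, with every SKG library above every BALB/c library. The means were 42.6 ± 13.3 CPM (SD, n = 3) and 105 ± 24.3 (SD, n = 3), a log2 fold change of 1.31 (standard error 0.34, edgeR unadjusted p = 0.00757, adjusted p = 0.686). DESeq2 with shrunken fold changes called it, with a log2 fold change of 1.24 and an adjusted p of 0.0591, where that test called 1.67% of 13862 genes and 0 of the 9. Cxxc5 was the only gene of the wider list called in that fit.

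Lig3, the DNA ligase that seals nicks in base excision repair, was at 53.1 ± 12.0 CPM (SD, n = 3) in BALB/c against 84.8 ± 5.98 (SD, n = 3) in SKG, without overlap (log2 fold change 0.68, standard error 0.26, edgeR unadjusted p = 0.0385, adjusted p = 0.872). Uhrf2, the paralog of Uhrf1, was at 72.6 ± 12.4 and 117 ± 32.9 CPM (SD, n = 3 each) with overlap (log2 fold change 0.69, standard error 0.28, edgeR unadjusted p = 0.0489, adjusted p = 0.912). Uhrf1 itself had a fitted fold of the opposite sign, and the difference between the paralogs was not tested.

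The 3 genes of the list that lay higher in BALB/c without overlap were Pcna, Mbd4 and Gadd45g, singled out after their values had been seen. Pcna, the replication clamp, was at 168 ± 10.6 CPM (SD, n = 3) in BALB/c against 114 ± 47.0 (SD, n = 3) in SKG (edgeR adjusted p = 0.972). Mbd4, a glycosylase for mismatched thymine at CpG, had 4133, 1722 and 1143 reads in BALB/c against 11, 831 and 889 in SKG (edgeR adjusted p = 0.988). Its lowest BALB/c library, at 25.3 CPM, was almost equal to its highest SKG library, at 24.6 CPM. Gadd45g, a stress-response gene linked to demethylation, had 1129, 636 and 1316 reads in BALB/c against 296, 269 and 545 in SKG (edgeR adjusted p = 0.952).

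Among the genes of the list with high levels, none named in the next sentences passed the test. Parp1, which senses DNA strand breaks, was at 379 ± 87.7 CPM (SD, n = 3) in BALB/c against 382 ± 18.5 (SD, n = 3) in SKG. Mat2a, which makes the methyl donor S-adenosylmethionine, was at 597 ± 72.8 and 539 ± 107 CPM (SD, n = 3 each). Mbd3, a subunit of the NuRD repressor complex, was at 243 ± 27.3 and 273 ± 29.0 CPM (SD, n = 3 each). Ogt, the O-GlcNAc transferase that binds Tet proteins, was at 387 ± 101 and 519 ± 98.2 CPM (SD, n = 3 each), and Trim28, a corepressor that protects imprints, at 251 ± 56.2 and 215 ± 11.1 (SD, n = 3 each). Of the 8 cofactor genes, 7 were higher in SKG by fold, against 6030 of all 12312 genes tested. The median log2 fold change of the 8 was 0.46 beside -0.02 over all genes. None of the 8 had an unadjusted p under 0.05 (edgeR). Some of them were low or uneven: Ahcy had means of 2.44 CPM in BALB/c and 3.89 in SKG, and Idh1 had 1 read in SKG replicate 3.

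**Figure D5:**
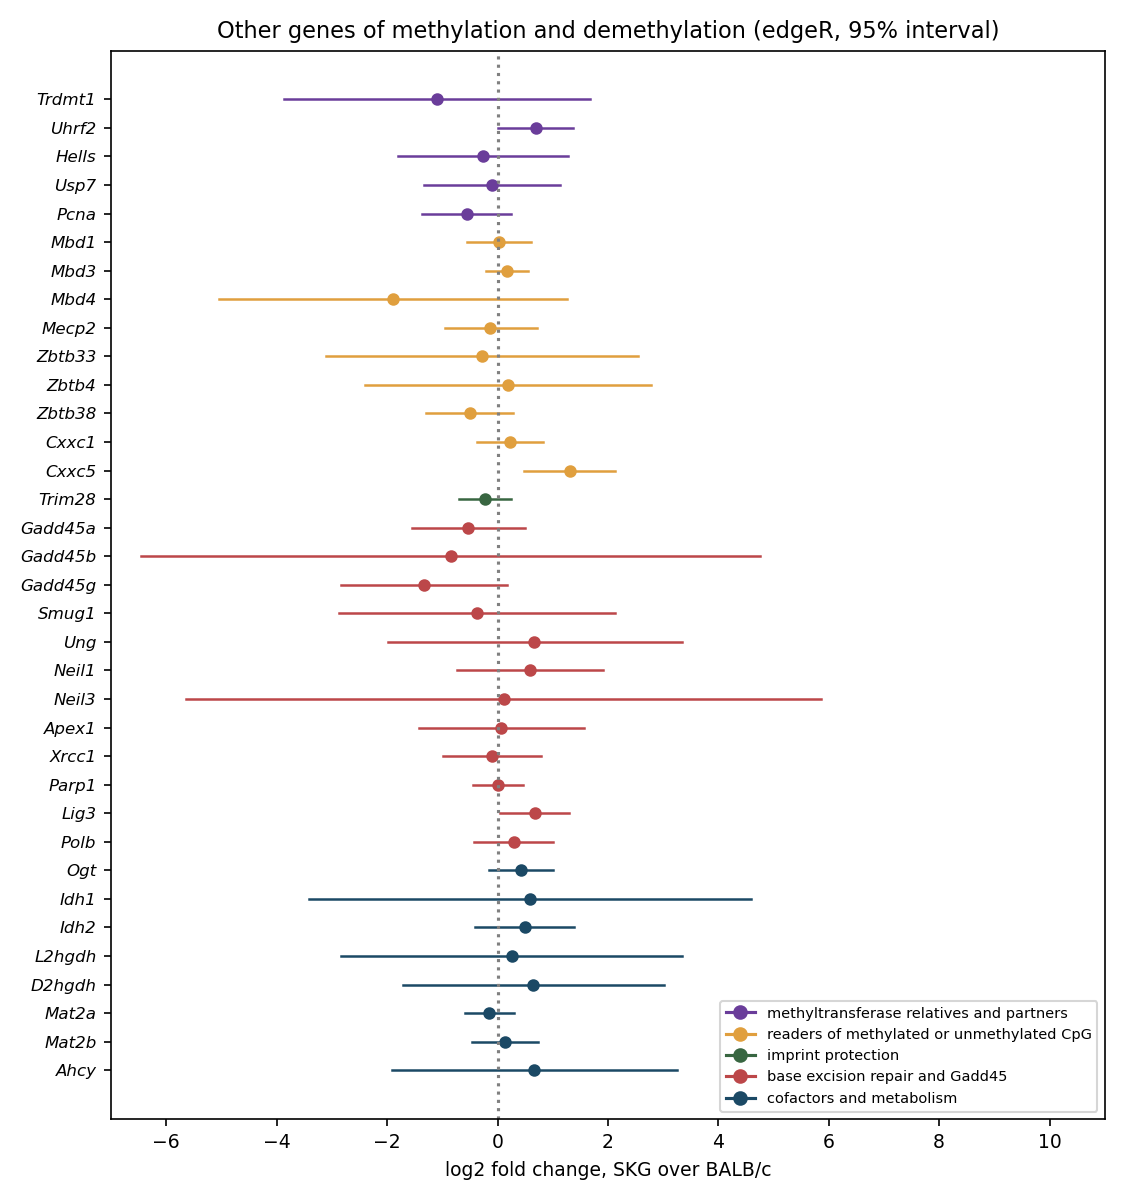
Log2 fold change of SKG over BALB/c with 95% intervals (edgeR) for the 35 tested genes of the wider list, coloured by role. Cxxc5, at 1.31, Uhrf2, at 0.69, and Lig3, at 0.68, have intervals above 0, and those of the other genes include 0.

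The 8 T and iNKT markers were read in all libraries, and their summed level was 4550 to 5670 CPM in BALB/c against 3880 to 4240 in SKG. Of these, Egr2 and Cd69 were at an unadjusted p under 0.05 (edgeR), and both were lower in SKG. Egr2 was at 1550, 1100 and 1410 CPM in BALB/c against 883, 956 and 493 in SKG. Cd69 was at 312, 391 and 354 CPM against 152, 179 and 250. Every other T and iNKT marker overlapped between the genotypes. Cd24a was highest in SKG replicates 2 and 3, at 88.6 and 90.7 CPM against at most 52.4 in BALB/c. Egr2 is a large term of the summed level, and the paper describes it as a downstream target of T cell receptor signalling. The sum is therefore not a measure of the number of T or iNKT cells alone. Whether fewer such cells were present in SKG was not tested. The 14 markers of cycling cells, a state in which Dnmt1 and Uhrf1 are abundant, summed to 1960 to 2230 CPM in BALB/c against 1630 to 2210 in SKG. The Mcm genes made up most of these sums. Only 1 of 14 markers, Mcm2, was at an unadjusted p under 0.05 (edgeR), and it was lower in SKG. Other markers differed widely between libraries. Mki67 was at 66, 0.027 and 2.46 CPM in BALB/c against 17, 25 and 36.1 in SKG. The sums thus do not show that cycling was alike. Markers of double-positive thymocytes summed to 39.3 to 394 CPM in BALB/c against 72.3 to 153 in SKG, with Rag1, Rag2 and Ptcra at 0 in some libraries. B cell markers summed to at most 6.84 and 8.38 CPM. Myeloid markers reached 53.7 CPM in BALB/c against 107 in SKG, with Cd14 at 0 throughout, and erythroid markers 69.7 and 0.691, with Alas2 at 0 throughout. Thymic epithelial markers reached 40.3 and 86.9 CPM, with Psmb11 and Krt5 at 0 throughout. Among the BALB/c libraries, replicate 1 had the highest double-positive, B cell, myeloid and erythroid sums, and among the SKG libraries replicate 3 had the highest sums of these and of the epithelial markers. Several of these sums rested on 1 gene. Lyz2 alone gave the myeloid sums of BALB/c replicate 1 (53.7 CPM) and SKG replicate 3 (107 CPM). In SKG replicate 3, Epcam alone gave the epithelial 86.9 CPM and Cd79b alone the B cell 8.38 CPM. The double-positive sums of both libraries and the erythroid sum of BALB/c replicate 1 came from several genes. Dnmt3b was nearly absent in BALB/c replicate 1 and SKG replicate 3. The part of such cells in the values of the 9 genes was not tested.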

How the data were processed

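RNA of stage 0 iNKT cells was sequenced as 50 nt single reads from 6 libraries. According to the submitters' processing notes and the methods, reads were aligned with HISAT2 2.1.0 to GRCm38, and reads on exons were counted, unstranded and with mapping quality 10 or higher, with featureCounts (Subread 1.4.4). The counts were deposited by the authors as whole numbers per gene, without normalization. A second deposited table holds the authors' own DESeq2 1.14.1 comparison, with base means, log2 fold changes, standard errors, statistics and p-values, and was not used. The methods name the SEQR amplification kit whereas the labels name SMART-Seq v4, which was not resolved. No molecular identifiers are named, so PCR copies count as reads.

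Genes were tested with edgeR 4.0.16 under R 4.3.3 (filterByExpr by genotype, TMM, quasi-likelihood F test, all 6 libraries in 1 fit without covariates, Benjamini-Hochberg adjustment over 12312 genes, called at an FDR below 0.1 and 1.5-fold or more). Standard errors were the size of the log2 fold change over the square root of F. Log2 CPM for correlations used a prior count of 2. Alternatives used DESeq2 1.42.0 and limma 3.58.1. Positions and exon lengths came from the GENCODE annotation of GRCm38 by symbol, and promoters from RefSeq. The members, the wider list and the markers were chosen with earlier results of these data known. Named genes are the 9 members, genes of the wider list that were called, had an unadjusted p under 0.05 or were among up to 8 others at the highest mean level in their functional group, and the 3 genes most like Dnmt1, Tet2 and Tet3; Pcna, Mbd4 and Gadd45g were singled out for not overlapping after their values had been seen. The main edgeR fit was tested on simulated counts, and the other fits were not. A pass was required only at a dispersion of 0.1, below the 0.842 of these data. The simulation therefore does not bear on the absence of called genes.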

Additional observations from a re-analysis of the deposited data

How the results depend on the processing

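None of the 9 genes was called under any alternative. Of 135 alternative log2 fold changes of these genes, 132 kept their direction and 3, all of Tet1, turned: 0.35 without BALB/c replicate 1, 0.33 without SKG replicate 2 and 0.06 without SKG replicate 3, with a range of -0.67 to 0.35 over the fits with 1 library left out. The count of genes called was 370 with DESeq2 without shrinkage (177 higher in SKG, 193 higher in BALB/c), 231 after shrinkage and 2 when genes of low counts were kept, both higher in SKG, and it was 0 with limma-voom, RLE or library-size scaling, a stricter filter and each library left out. An unadjusted p under 0.05 was reached by 671 genes with edgeR, 968 with limma-voom and 1141 of 25935 without a filter. In the wider list, 3 genes had an unadjusted p under 0.05, 4 with DESeq2 after shrinkage, 1 without a filter and 1 to 3 with a library left out, the 1 occurring without BALB/c replicate 2 and without SKG replicate 2. The share of Dnmt1 in its family was 44.8% in BALB/c, where Dnmt3a had 51.7%, and 68.1% in SKG per kb of coding length, and that of Tet3 in BALB/c was 59.9% with reads undivided by length and 62.3% per kb of coding length. Lengths of RefSeq proteins, planned for these shares, were not run for want of a protein table, and the GENCODE coding length was chosen after seeing the data. Libraries sharing a number were not paired: residuals correlated at -0.145 to -0.00962 for the title numbers and at -0.0384 and 0.00289 for the library numbers. With either number as a replicate block 0 genes were called, and 585 and 443 had an unadjusted p under 0.05. Tet2 was at -3.10 and -3.80 in these fits. The cause of these shifts was not tested. For Dnmt3b and Tet2, libraries with few reads limit what a fold can show.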
